A study of Mus musculus with 9 samples.

Results

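The genes of the EGF-family ligands and of the ERBB receptors that bind them were followed in RNA-seq libraries of cultured neonatal mouse ventricular myocytes. The members were the 10 genes named Hbegf, Areg, Ereg, Btc, Tgfa and Nrg1 (6 ligands) and Egfr, Erbb2, Erbb3 and Erbb4 (4 receptors), found by gene name among the 55401 genes of the deposited count table. All 10 members were among the 16762 genes with enough counts to test. The study compared 3 groups of 3 cultures, made from wild-type C57BL/6J pups that were 1 day old. Control cultures stayed in normal oxygen in DMEM with 10% FBS. Hypoxia cultures were moved to DMEM lacking glucose and serum and closed for 6 h in a chamber with an AnaeroPack, which uses up the oxygen. The hypoxia + rSRGN cultures had the same treatment with recombinant serglycin (rSRGN), the core protein of a secreted proteoglycan, added to the medium. Its concentration is not given in the sources used here. Low oxygen, loss of glucose and loss of serum differed together between control and both hypoxic groups, so their effects cannot be told apart. The labels do not say whether the 3 cultures of a group came from separate litters or isolations, so the p-values measure the spread between these libraries, which may be technical.

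EGF-family ligands are made as precursors in the cell membrane and are cut free by proteases such as ADAM17, after which they bind receptors on the same cell or its neighbours. EGFR binds amphiregulin, TGF-α, HB-EGF, betacellulin and epiregulin. ERBB4 binds neuregulins and also HB-EGF, betacellulin and epiregulin, ERBB3 binds neuregulins but has a nearly inactive kinase, and ERBB2 binds no ligand and acts as a partner in dimers. In the heart, neuregulin-1 from endothelial cells acting on ERBB4 and ERBB2 in cardiomyocytes is required for the forming ventricle and for the maintenance of adult muscle.

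Libraries held 21669017 to 22781557 counts in control, 16583985 to 18148474 in hypoxia and 16640239 to 20826701 in hypoxia + rSRGN. The labelled cell type had its markers in every group. All 15 cardiomyocyte markers, such as Myh6 and Tnnt2, were detected, with a summed level of 55980 to 68160 CPM (counts scaled by TMM to equal library size) in control, 4809 to 7516 in hypoxia and 9762 to 10400 in hypoxia + rSRGN. The cultures also held RNA of other cells. The 10 fibroblast markers summed to 8843 to 10430 CPM in control, 17380 to 20170 in hypoxia and 19270 to 19840 in hypoxia + rSRGN, and the 7 epicardial markers to 246 to 283, 863 to 944 and 822 to 903 CPM. The 10 endothelial markers summed to 80.6 to 113 CPM in control, 57.9 to 71.7 in hypoxia and 62.2 to 75.2 in hypoxia + rSRGN. The 8 smooth muscle and pericyte markers summed to 2078 to 2406, 2419 to 2733 and 2316 to 2433 CPM. Of 10 macrophage markers, 9 fell and 1 rose in hypoxia, against 25.1% and 26.4% of all genes tested, with a list median of -4.12 on the log2 scale. The 9 that fell summed to 232 to 248 CPM in control, 24.6 to 27.0 in hypoxia and 29.0 to 34.6 in hypoxia + rSRGN, whereas Cx3cr1 alone had 0.0451 to 0.676, 81.8 to 139 and 107 to 121 CPM. The part of these markers in the ligand and receptor levels was not tested. In bulk libraries, fewer cells of a type and less RNA per cell cannot be told apart. Which cell type each ligand or receptor transcript came from was not measured.

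In hypoxia against control, 5 of the 6 ligand genes rose and 3 of the 4 receptor genes fell, while Egfr rose. Addition of rSRGN to hypoxic cultures was followed by a rise of the ligand genes Hbegf, Ereg, Btc and Tgfa and of the receptor gene Erbb4, and no member fell. A gene was called at a Benjamini-Hochberg adjusted p below 0.05 over all genes tested and a fold change of at least 1.5, by edgeR's quasi-likelihood test. In hypoxia against control, 9 of 10 members were called, against 51.6% of all genes tested. By direction, 6 members were higher and 3 were lower, against 26.4% and 25.1% of all genes. In hypoxia + rSRGN against hypoxia, 5 of 10 members were called, against 3.13% of all genes. All 5 were higher, against 2.27% of all genes, and 0 were lower, against 0.859% of all genes. No member was lower at an unadjusted p either, and DESeq2 also called 5 members. The count fell to 2 members without replicate 3 of hypoxia and to 3 without replicate 2 of hypoxia + rSRGN. Without replicate 3 of hypoxia, 321 of all genes were called in place of 525. In hypoxia + rSRGN against control, all 10 members were called, against 48.8% of all genes, with 7 higher and 3 lower, against 24.1% and 24.7% of all genes. Tgfa was under the fold limit there in 4 alternatives. These comparisons share libraries and are not independent of each other. The median log2 fold change of all genes tested was 0.05 in hypoxia against control and -0.03 in hypoxia + rSRGN against hypoxia.

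**Figure D1:**
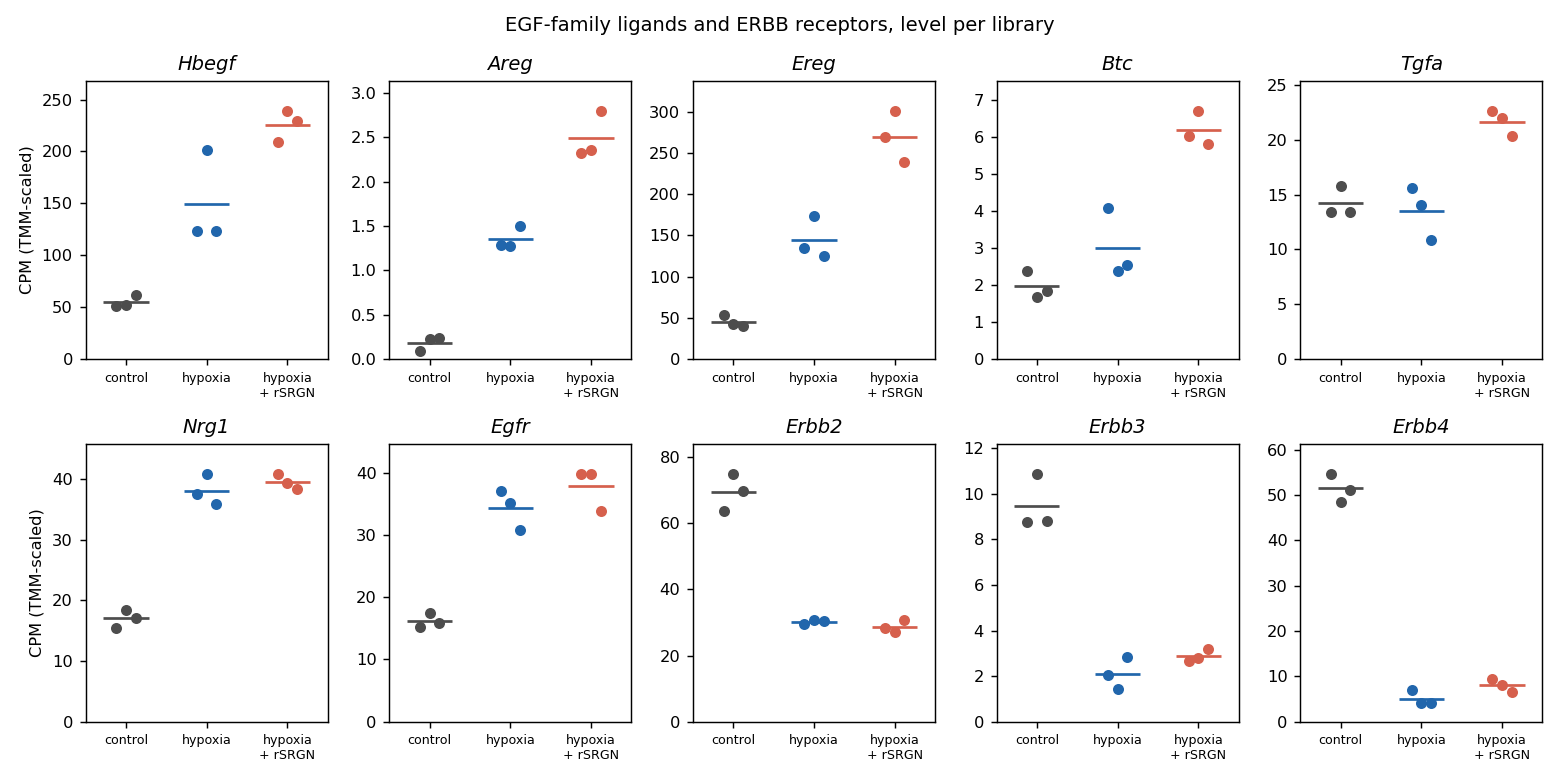
Level of each ligand and receptor gene in CPM (vertical axis, starting at 0 with its own scale in each panel) in the control, hypoxia and hypoxia + rSRGN libraries. Each point is 1 library and each line the mean of the 3 libraries of a group, with Hbegf, Ereg and Areg stepping up across the groups, and Erbb2, Erbb3 and Erbb4 high in control alone.

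Ereg and Hbegf were the ligand genes with the most reads. By mean CPM, Hbegf stood above Ereg in control (55.1 against 45.3) and in hypoxia (149 against 144). Ereg stood above Hbegf in hypoxia + rSRGN (270.1 against 226). The order of the means did not hold in replicate 1 of control or replicates 1 and 3 of hypoxia, where Ereg was the higher. Ereg encodes epiregulin, which binds EGFR and ERBB4 and is made at inflamed and healing sites. Its level was 53.7, 42.5 and 39.5 CPM in the control libraries, 135, 174 and 125 CPM in hypoxia and 269, 301 and 239.8 CPM in hypoxia + rSRGN. The 3 groups did not overlap, and every library of each group lay above every library of the group before it. Ereg rose 3.18-fold in hypoxia against control (log2 fold change 1.67 ± 0.12 SE, adjusted p = 2.86e-11) and a further 1.87-fold with rSRGN (0.91 ± 0.11, adjusted p = 4.75e-05). The antisense gene Gm19610 shares 141 of the exon bases of Ereg on the other strand, and as fragments were counted without strand, those bases cannot be assigned. Gm19610 held 708 counts over the 9 libraries against 25925 for Ereg, and its log2 fold change was 1.76 in hypoxia against control (adjusted p = 2.60e-06), beside 1.67 for Ereg, and -0.21 with rSRGN (adjusted p = 0.603), beside 0.91 for Ereg.

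Hbegf encodes heparin-binding EGF-like growth factor, a ligand of EGFR and ERBB4 that attaches to heparan sulfate chains of proteoglycans. Its level was 51.2, 52.3 and 61.7 CPM in control, 123, 201 and 123 CPM in hypoxia and 209, 239 and 229 CPM in hypoxia + rSRGN. The groups did not overlap, although replicate 2 of hypoxia stood well above the other hypoxia libraries and close to the lowest of hypoxia + rSRGN. Hbegf rose 2.71-fold in hypoxia (log2 fold change 1.44 ± 0.14 SE, adjusted p = 3.05e-09) and 1.51-fold with rSRGN (0.60 ± 0.13, adjusted p = 0.00328). The latter fold lies just past the limit of 1.5, and the log2 fold change fell to 0.48 and under the limit when replicate 1 or replicate 3 of hypoxia was left out, and to 0.56 without replicate 2 of hypoxia + rSRGN.

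Areg encodes amphiregulin, a ligand of EGFR. It was the member with the fewest reads, with 0.0899, 0.226 and 0.242 CPM in control, 1.29, 1.27 and 1.51 CPM in hypoxia and 2.32, 2.36 and 2.80 CPM in hypoxia + rSRGN. These levels come from 2 to 5 counts per control library, 22 to 26 per hypoxia library and 39 to 53 per hypoxia + rSRGN library. The groups stood in the same order as for Ereg without overlap. Areg rose 7.12-fold in hypoxia against control (log2 fold change 2.83 ± 0.46 SE, 95% interval 1.87 to 3.79, adjusted p = 1.14e-05). The step with rSRGN had a log2 fold change of 0.88 ± 0.34, close to the 0.91 of Ereg, and did not pass the test (95% interval 0.16 to 1.59, adjusted p = 0.0863).

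Btc encodes betacellulin, which binds EGFR and ERBB4. Its level was 2.38, 1.67 and 1.84 CPM in control, 4.08, 2.37 and 2.55 CPM in hypoxia and 6.02, 6.70 and 5.81 CPM in hypoxia + rSRGN. The highest control library lay just above the lowest hypoxia library, whereas every hypoxia + rSRGN library lay above both other groups. With rSRGN, Btc rose 2.05-fold (log2 fold change 1.04 ± 0.23 SE, adjusted p = 0.00422), the largest rise among the members in that comparison. Without replicate 2 of hypoxia its log2 fold change was 0.89, below the 1.06 of Ereg. In hypoxia against control Btc rose 1.53-fold (0.61 ± 0.25, adjusted p = 0.0357). That call rested on replicate 1 of hypoxia, without which the log2 fold change was 0.32 (adjusted p = 0.295), and it was also lost without replicate 2 (0.49) or replicate 3 (0.56) of control.

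Ereg, Areg and Btc follow each other among the protein-coding genes on chromosome 5 of the GRCm38 build, with the epigen gene Epgn before them and 3 non-coding genes between. Ereg spans positions 91074622 to 91093646 and Areg positions 91139599 to 91148432, both on the plus strand. Btc spans positions 91357261 to 91402994 on the minus strand. Epgn, at positions 91027464 to 91035215, had 63 counts in all 9 libraries together and was too low to test. The 250 bases before the start of Areg and of Btc are shown because both neighbours were called higher than control in both hypoxic groups. For Btc the call in hypoxia depended on single libraries. The bases are from RefSeq (GRCm38.p6), which gave such windows for 6 of the 10 members, and run 5′ to 3′ on the strand of the gene. Capitals mark the letters found by the search described next.
Areg, chr5:91139349-91139598, plus strand: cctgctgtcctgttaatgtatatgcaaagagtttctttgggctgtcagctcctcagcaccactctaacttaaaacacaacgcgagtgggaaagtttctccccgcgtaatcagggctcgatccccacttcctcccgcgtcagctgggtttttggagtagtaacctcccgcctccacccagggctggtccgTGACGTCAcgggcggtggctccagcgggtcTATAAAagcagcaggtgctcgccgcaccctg
Btc, chr5:91402995-91403244, minus strand: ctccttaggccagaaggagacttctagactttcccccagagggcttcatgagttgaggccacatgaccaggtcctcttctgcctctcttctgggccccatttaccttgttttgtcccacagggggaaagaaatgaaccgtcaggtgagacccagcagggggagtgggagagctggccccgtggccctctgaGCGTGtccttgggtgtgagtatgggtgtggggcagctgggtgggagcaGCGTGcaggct

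The windows were searched for a cyclic AMP response element (TGACGTCA, either strand), a TATA box (TATAAA, the strand of the gene), the core of a hypoxia response element (ACGTG or GCGTG, either strand), the AP-1 site (TGANTCA, either strand) and the CArG box of serum response factor (either strand). Areg held TGACGTCA, which begins at position -61 from its start, and TATAAA at -31. Of 32851 promoter windows of the same length, 1.55% held the former and 7.59% the latter. Btc held GCGTG at -59 and at -11, and Tgfa held it at -222, letters that 38.6% of all windows contain in either form. None of the 6 windows held the AP-1 letters, present in 6.75% of all windows, or a CArG box, present in 1.47%. A match is a description of the letters and not a measured binding site.

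Tgfa encodes TGF-α, a ligand of EGFR. Its level was 13.4, 15.8 and 13.4 CPM in control, 15.6, 14.04 and 10.9 CPM in hypoxia and 22.6, 22.0 and 20.3 CPM in hypoxia + rSRGN. Control and hypoxia lay in the same range and hypoxia + rSRGN above both. The log2 fold change in hypoxia against control was -0.07 ± 0.13 SE (95% interval -0.34 to 0.19, adjusted p = 0.635), and Tgfa was the only member not called in that comparison. With rSRGN it rose 1.60-fold (0.68 ± 0.13, adjusted p = 0.000965). Without replicate 3 of hypoxia, the lowest of that group, this value was 0.55 and under the fold limit.

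Nrg1 encodes neuregulin-1, the ligand of ERBB3 and ERBB4. Its level was 15.5, 18.4 and 17.2 CPM in control, 37.5, 40.8 and 35.9 CPM in hypoxia and 40.9, 39.4 and 38.3 CPM in hypoxia + rSRGN. Both hypoxic groups lay above control and overlapped each other. Nrg1 rose 2.24-fold in hypoxia (log2 fold change 1.16 ± 0.10 SE, adjusted p = 4.78e-10), while the value with rSRGN was 0.05 with a 95% interval from -0.14 to 0.25 (adjusted p = 0.752). The counts join all transcripts of the gene, so the neuregulin-1 isoforms were not separated.

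**Figure D2:**
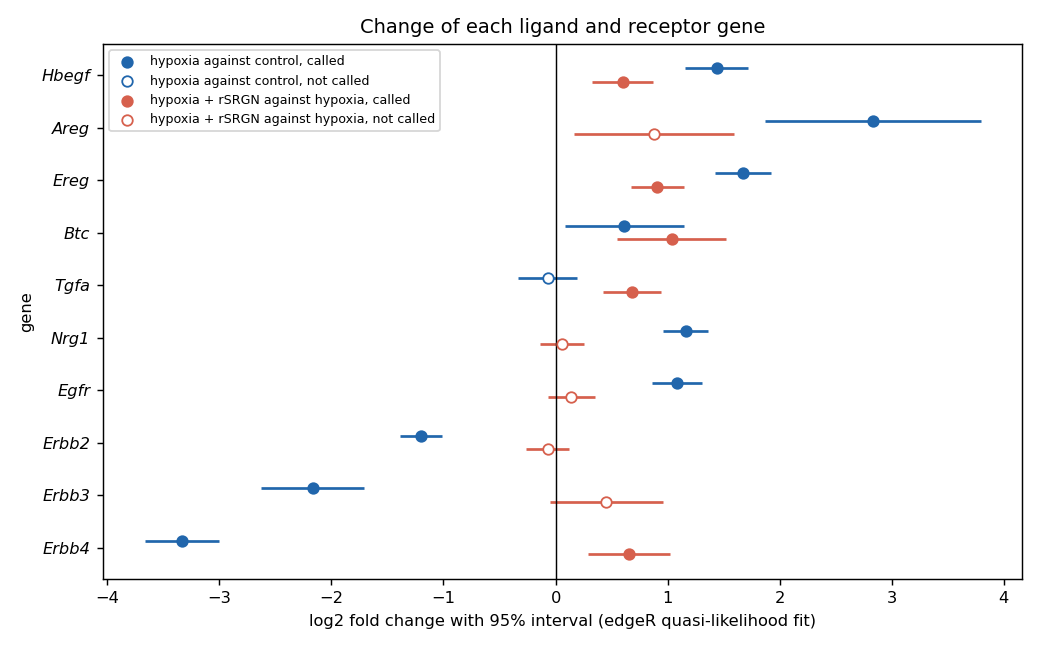
Log2 fold change of each member (horizontal axis) with its 95% interval, for hypoxia against control and for hypoxia + rSRGN against hypoxia. Filled points passed both limits and open points did not; Erbb4 is farthest to the left at -3.34, and all 5 filled points of the rSRGN comparison lie between 0.60 and 1.04.

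The receptors changed in both directions. Egfr, the receptor of amphiregulin and TGF-α, had 15.3, 17.5 and 15.8 CPM in control, 37.0, 35.1 and 30.8 CPM in hypoxia and 39.9, 39.7 and 33.9 CPM in hypoxia + rSRGN. The hypoxic groups lay above control and overlapped each other. Egfr rose 2.12-fold in hypoxia (log2 fold change 1.08 ± 0.11 SE, adjusted p = 5.87e-09). With rSRGN the value was 0.14 (95% interval -0.07 to 0.35, adjusted p = 0.383).

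Erbb4 encodes the neuregulin receptor of cardiomyocytes. Its level was 54.7, 48.5 and 51.2 CPM in control, 7.04, 4.04 and 4.11 CPM in hypoxia and 9.41, 8.19 and 6.55 CPM in hypoxia + rSRGN. Every hypoxic library was far below control, and replicate 1 of hypoxia lay above replicate 3 of hypoxia + rSRGN. Erbb4 was 10.1-fold lower in hypoxia than in control (log2 fold change -3.34 ± 0.16 SE, adjusted p = 2.76e-14), and it ranked 486 from the lowest of the 16762 genes tested. With rSRGN it rose 1.58-fold (0.66 ± 0.18, adjusted p = 0.0144) and stayed 6.41-fold below control (log2 fold change -2.68, adjusted p = 5.23e-13). The rise with rSRGN was not called when replicate 2 or 3 of hypoxia or replicate 1 or 2 of hypoxia + rSRGN was left out, with log2 fold changes of 0.52, 0.53, 0.54 and 0.64. The cardiomyocyte markers moved in the same way. In hypoxia, 15 of 15 fell (median log2 fold change -3.59), against 25.1% of all genes. With rSRGN 13 of 15 rose (median 0.77), against 2.27% of all genes, and the part of this in the values of Erbb4 was not tested.

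Egfr and Erbb4, which moved in opposite directions, are shown with the 250 bases before their starts (RefSeq, GRCm38.p6, 5′ to 3′ on the strand of the gene). Neither window held letters of the motifs searched, so no base is in capitals.
Egfr, chr11:16751953-16752202, plus strand: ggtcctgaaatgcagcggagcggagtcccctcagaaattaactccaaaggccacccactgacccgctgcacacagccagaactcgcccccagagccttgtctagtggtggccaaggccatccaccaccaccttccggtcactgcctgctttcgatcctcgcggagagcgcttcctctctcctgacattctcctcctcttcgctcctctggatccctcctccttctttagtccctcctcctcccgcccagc
Erbb4, chr1:69108060-69108309, minus strand: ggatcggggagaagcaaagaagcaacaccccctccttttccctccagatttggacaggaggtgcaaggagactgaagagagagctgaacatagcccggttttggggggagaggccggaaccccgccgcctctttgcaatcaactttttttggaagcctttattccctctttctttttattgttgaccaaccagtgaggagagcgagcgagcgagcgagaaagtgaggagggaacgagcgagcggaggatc

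Erbb2 encodes the partner receptor without a ligand. Its level was 63.7, 75.0 and 69.7 CPM in control, 29.4, 30.7 and 30.4 CPM in hypoxia and 28.4, 27.1 and 30.8 CPM in hypoxia + rSRGN. The hypoxic groups overlapped each other and lay below control. Erbb2 was 2.30-fold lower in hypoxia (log2 fold change -1.20 ± 0.09 SE, adjusted p = 5.19e-11), and the value with rSRGN was -0.07 (95% interval -0.26 to 0.12, adjusted p = 0.662). Erbb3 encodes the neuregulin receptor with the weak kinase. It had 8.76, 10.9 and 8.79 CPM in control, 2.04, 1.44 and 2.84 CPM in hypoxia and 2.68, 2.79 and 3.17 CPM in hypoxia + rSRGN. Erbb3 was 4.49-fold lower in hypoxia (-2.17 ± 0.22, adjusted p = 1.11e-08), with no overlap with control. With rSRGN its log2 fold change was 0.45 (95% interval -0.05 to 0.96, adjusted p = 0.224), and hypoxia and hypoxia + rSRGN overlapped.

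Levels of different genes were compared per length, as FPKM, in which the counts are divided by exon length and scaled library size. In control, Erbb2 stood highest with a mean of 13.3 FPKM, and its range overlapped with those of Hbegf (11.4) and Ereg (10.96). Erbb4 followed with 4.17, Tgfa with 2.19, and Erbb3 (1.58) and Egfr (1.43) with overlapping ranges. Nrg1 (1.10), Btc (0.434) and Areg (0.153) were the lowest. In hypoxia the order began with Ereg (34.9) and Hbegf (30.9), whose ranges overlapped, and then Erbb2 (5.80), Egfr (3.03), Nrg1 (2.47) and Tgfa (2.08). Nrg1 and Tgfa overlapped. Erbb4 (0.410) and Erbb3 (0.350) stood at the end and overlapped each other, and Erbb4 also overlapped Btc (0.664). In hypoxia + rSRGN, Ereg (65.4 FPKM) lay above Hbegf (46.7 FPKM) in every library, while Egfr and Tgfa, both at 3.34 FPKM, overlapped.

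The makeup of the receptor transcripts differed between control and the hypoxic groups. Egfr made up 6.97% ± 0.14 (SD, n = 3) of the summed FPKM of the 4 receptors in control, 31.6% ± 2.23 in hypoxia and 33.4% ± 3.00 in hypoxia + rSRGN. Erbb4 made up 20.4% ± 2.32 in control, 4.26% ± 1.33 in hypoxia and 6.52% ± 1.10 in hypoxia + rSRGN. For both genes control stood apart from the hypoxic groups, which overlapped each other. Erbb2 was the most abundant receptor transcript in every library, at 65.0% ± 1.90, 60.5% ± 2.64 and 55.3% ± 3.57. Erbb4 exceeded Egfr by 3.28, 2.55 and 2.97 times in the control libraries. In hypoxia Egfr exceeded Erbb4 by 5.74, 9.46 and 8.16 times, and in hypoxia + rSRGN by 4.62, 5.29 and 5.64 times. The order of the pair was thus reversed in every hypoxic library, with a smaller excess of Egfr in hypoxia + rSRGN than in any hypoxia library. With 3 libraries against 3, an exact permutation test cannot go below p = 0.10, so these ratios are given without a test.

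Hbegf and Ereg together supplied most of the transcripts of the 6 member ligands in each group. Hbegf made up 43.5% ± 5.05 (SD, n = 3), 42.3% ± 3.56 and 38.5% ± 2.51 of the summed ligand FPKM in control, hypoxia and hypoxia + rSRGN, and Ereg 41.7% ± 5.58, 48.7% ± 1.82 and 53.8% ± 2.75. The share of Tgfa was 8.36% ± 1.08, 2.95% ± 0.67 and 2.76% ± 0.20. Its own level was not called in hypoxia and was higher in hypoxia + rSRGN than in control (log2 fold change 0.61, adjusted p = 0.000157). That rise was under the fold limit in 4 alternatives. The summed ligand level was 25.3 to 27.3 FPKM in control, 61.4 to 90.1 in hypoxia and 115 to 132 in hypoxia + rSRGN, while the summed receptor level was 19.5 to 21.7, 9.36 to 9.83 and 9.83 to 10.2 FPKM. These sums hold the 6 member ligands and leave out Egf, Nrg2 and Nrg4, of which Egf and Nrg2 fell in hypoxia. The ratio of the summed member ligands to the summed receptors was 1.40, 1.17 and 1.28 in control. It was 6.60, 9.42 and 6.56 in hypoxia and 11.6, 13.4 and 11.5 in hypoxia + rSRGN. The 3 groups did not overlap in this ratio.

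**Figure D3:**
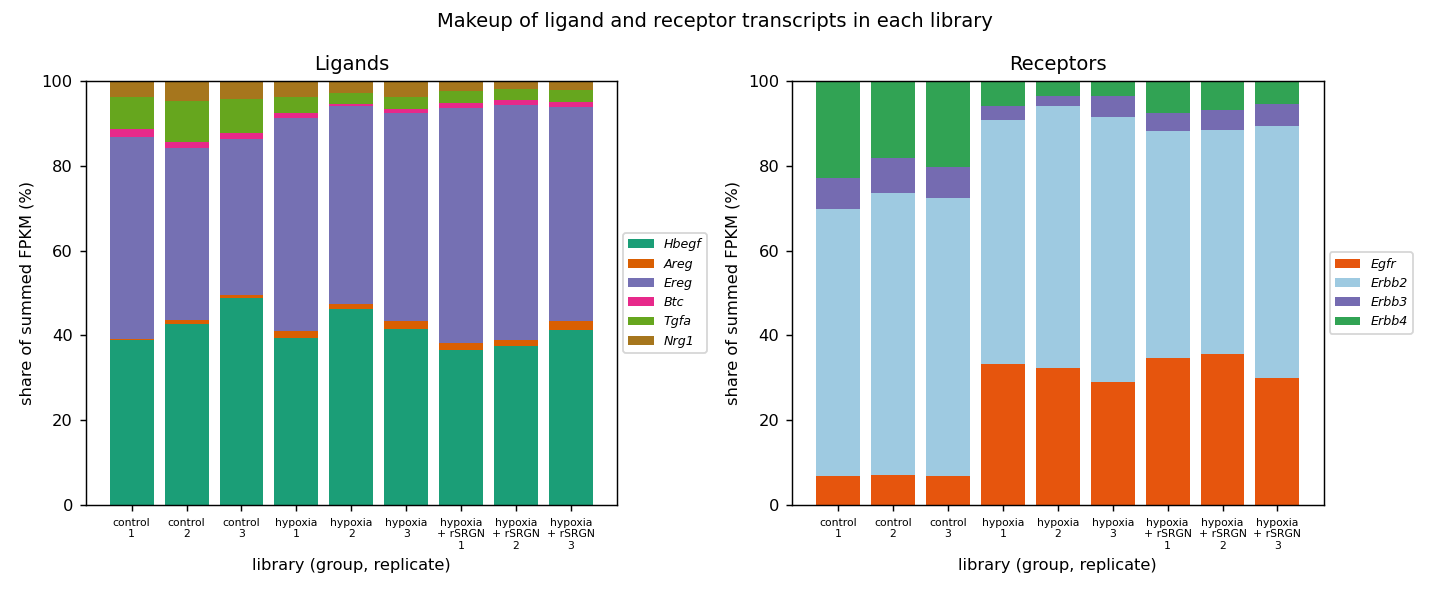
Share of each gene in the summed FPKM of the 6 ligands (left) and of the 4 receptors (right), in percent (vertical axis), with 1 bar per library. In the receptor bars, Egfr grows from between 6.85% and 7.12% in control to between 29.0% and 35.7% in the hypoxic libraries and Erbb4 shrinks from between 18.1% and 22.8% to at most 7.48%.

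The other genes of the family were mostly scarce. Of 5 listed ligands, Egf, Nrg2 and Nrg4 had enough counts to test, and Nrg3 had 0 counts in all 9 libraries. Egf, which encodes the founding ligand of EGFR, had 335 to 360 counts per control library, 43 to 49 in hypoxia and 39 to 47 in hypoxia + rSRGN, and fell by 2.63 on the log2 scale in hypoxia (adjusted p = 2.11e-12). Nrg2, another neuregulin gene, fell by 2.02 (adjusted p = 0.00010). Of the 9 family ligands tested, 5 rose and 2 fell in hypoxia, against 26.4% and 25.1% of all genes tested, and the rise of Btc among them depended on single libraries. With rSRGN, 0 of the 3 other ligands were called by edgeR, against 3.13% of all genes. DESeq2 and the unadjusted p with the same fold limit also gave 0.

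Of 13 tested sheddase and processing genes, 3 rose and 2 fell in hypoxia, against 26.4% and 25.1% of all genes tested, and the list had a median log2 fold change of 0.07. Adam15, a membrane protease, rose (1.28 ± 0.08 SE), and so did Rhbdf1 (1.11 ± 0.07), which encodes iRhom1, a partner that carries ADAM17 to the cell surface. Bace1, whose protease cuts neuregulin-1, fell (-1.57 ± 0.09). Without replicate 2 of control or replicate 2 of hypoxia, 1 gene in place of 2 fell, and with DESeq2 or without replicate 1 of control 3 did. The main sheddase genes Adam17 and Adam10 had log2 fold changes of -0.07 (adjusted p = 0.411) and -0.43 (adjusted p = 7.50e-05) and were not called, the latter for its fold. With rSRGN, 0 of the 13 genes were called by edgeR, against 3.13% of all genes, and 0 by DESeq2 or at an unadjusted p with the same fold limit. But without the fold limit 6 of the 13 were higher and 0 lower at the adjusted p, against 10.5% and 6.11% of all genes. Among the 6 higher were Adam17 (0.28, adjusted p = 0.0143), Adam10 (0.37, adjusted p = 0.00355) and the protease inhibitor gene Timp3 (0.29, adjusted p = 0.00661). Among 8 genes for proteins that hold ligands at the cell surface, 4 rose and 1 fell in hypoxia (26.4% and 25.1% of all genes), with a median of 0.52. Cd44 (1.16 ± 0.08), which carries heparan sulfate in some of its forms, and Cd9 (1.09 ± 0.08), a tetraspanin that associates with the HB-EGF precursor, rose. Gpc1, a heparan sulfate proteoglycan, fell (-1.93 ± 0.09). With rSRGN, 0 of the 8 were called by edgeR, against 3.13% of all genes, and 0 by DESeq2 or at an unadjusted p with the same fold limit. Without that limit 4 were higher and 0 lower at the adjusted p, against 10.5% and 6.11% of all genes. Cd44 was among the 4 (0.47, adjusted p = 0.000549).

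Of 20 genes for the restraint and turnover of the receptors, 5 rose and 3 fell in hypoxia, beside 26.4% and 25.1% of all genes, and the list had a median log2 fold change of 0.12. Errfi1, which encodes the EGFR inhibitor MIG6 and is induced by the receptor it inhibits, rose by 2.83 ± 0.17 SE in hypoxia (adjusted p = 1.39e-12) and by a further 0.85 with rSRGN (adjusted p = 0.000660). Lrig3, of the LRIG family of membrane proteins, rose by 1.49 in hypoxia. Cbl, a ubiquitin ligase that marks EGFR for breakdown, fell (-1.10 ± 0.10) and rose by 0.63 with rSRGN (adjusted p = 0.00026). Socs5, which encodes a protein that promotes EGFR breakdown, stood at 0.01 in hypoxia against control and rose by 0.71 with rSRGN (adjusted p = 5.96e-05). Errfi1, Cbl and Socs5 were the 3 genes of the list called with rSRGN, all higher, against 2.27% of all genes, and the median over the list was 0.17. Without the fold limit 8 of the 20 were higher and 0 lower at the adjusted p, against 10.5% and 6.11% of all genes.

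Of 30 genes for adaptors and kinases downstream, 3 rose and 12 fell in hypoxia, where 26.4% of all genes rose and 25.1% fell, and the list had a median log2 fold change of -0.27. The docking protein gene Gab1 (-1.78), the adaptor gene Crkl (-1.04) and Grb2 (-1.03), whose product links the receptors to the RAS pathway, fell the most. Without replicate 1 of control or replicate 2 of hypoxia, 1 gene in place of 3 rose, and without replicate 2 of control 4 did. With rSRGN, 0 of the 30 were called by edgeR, against 3.13% of all genes, with a median of 0.13. DESeq2 and the unadjusted p with the same fold limit also gave 0. Without that limit 7 were higher and 0 lower at the adjusted p, against 10.5% and 6.11% of all genes. Of 14 genes known to respond to the ERK pathway, 7 rose and 2 fell in hypoxia, against 26.4% and 25.1% of all genes, with a median of 0.65. Fosl1 (2.87 ± 0.19 SE), Phlda1 (2.24 ± 0.13) and Dusp6 (2.14 ± 0.09) rose the most. Fosl1 encodes a subunit of the AP-1 transcription factor and Dusp6 a phosphatase of ERK. The transcription factor genes Etv1 (-1.23) and Etv5 (-0.72) fell and Etv4 rose (1.00). With rSRGN, Dusp5, another ERK phosphatase gene, was the 1 gene of 14 called (0.62 ± 0.12, adjusted p = 0.00157), against 2.27% of all genes higher, with a median of 0.19. Without the fold limit 6 of the 14 were higher and 0 lower at the adjusted p, against 10.5% and 6.11% of all genes. Without replicate 1 or replicate 3 of hypoxia 0 genes of that list were called, and without replicate 2 of hypoxia 2 were. These genes also respond to other signals, and the activity of the receptors or of ERK was not measured.

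**Figure D4:**
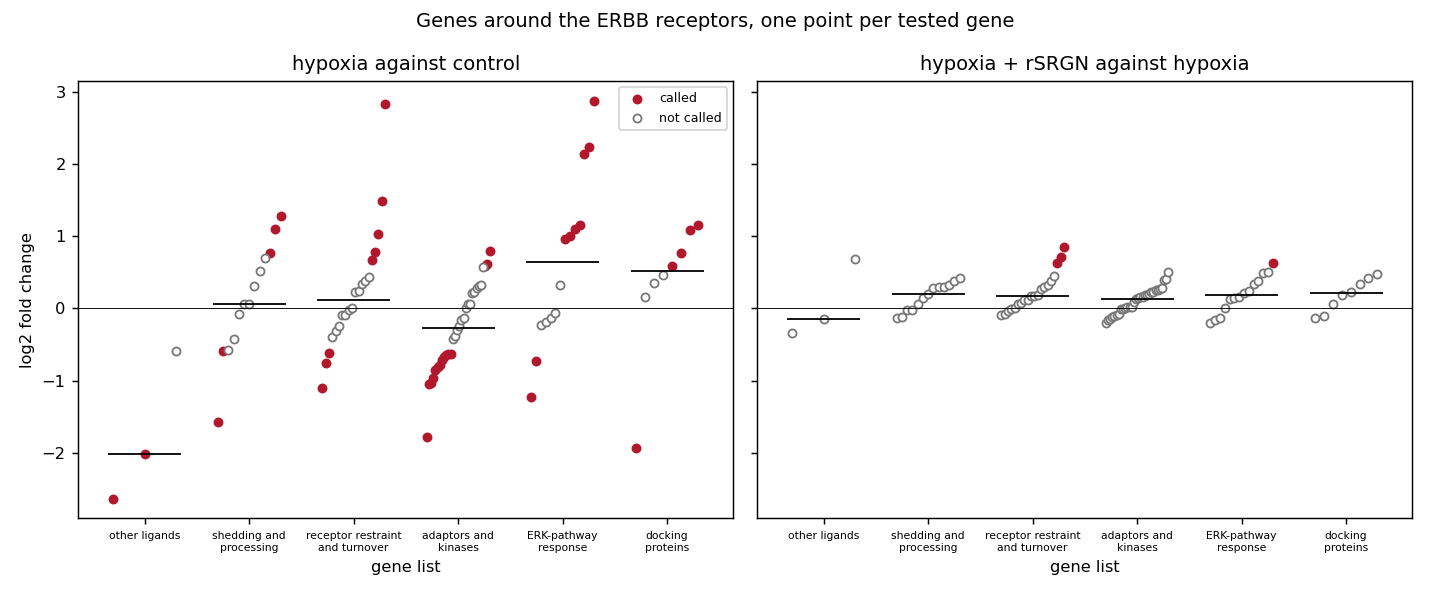
Log2 fold change (vertical axis) of each tested gene in 6 lists around the ERBB receptors, for hypoxia against control (left) and hypoxia + rSRGN against hypoxia (right), with the median of each list as a line. Filled points passed both limits, which holds for many genes on the left and for 4 genes on the right.

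The genes with the most similar profile were named for the ligand and the receptor with the highest mean CPM over all 9 libraries (Ereg, through its level in hypoxia + rSRGN, and Erbb2) and for each member called with rSRGN, by Pearson's r of log2 CPM over the 9 libraries. As the libraries share their group means, many genes have high values, and r is a description. For Ereg they were Washc5, Fam107b and Pkd2, with r of 0.996 to 0.997, among 480 genes above 0.95. For Hbegf, Ets1 (0.998) and Gm49774 were among the leading genes, with 480 genes above 0.95. For Erbb2, Dusp27 and Fbh1 were among the leading genes, with 1760 above 0.95, and for Erbb4 the leading genes were Sgms1, Abca12 and Vsnl1, among 1858. For Btc and Tgfa fewer genes were above 0.95. How far the low counts of Btc, 37 to 139 per library, lowered its r was not tested. Gcnt4 (0.983), Copb1 and Robo2 led 25 genes for Btc, and Wasf2 (0.974), Clcn5 and Ahnak were the 3 genes above 0.95 for Tgfa.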

How the data were processed

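Poly(A)-enriched RNA of 9 cultures was sequenced as paired-end libraries. The authors deposited whole-number counts of fragments per gene, without normalization, with the gene length (another column) beside them. Per the file headers, counting used featureCounts 2.0.1 on exons of GENCODE release 25 without a strand option. By the default of that program, fragments that fit several places or genes were left out, so overlapping genes and near-identical copies are uncertain. The submitters' processing notes name HISAT2 and mm10. All 9 columns of counts were used and 0 were left unused. The paper describes hearts, which were not analysed here, and not these cultures.

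Each library took its group and replicate number from its title. The filterByExpr step of edgeR 4.0.16 (R 4.3.3) left 16762 genes. TMM factors set the scale, 1 model with 3 group means took in the 9 libraries, and contrasts were tested by quasi-likelihood with p-values adjusted by Benjamini-Hochberg. For a call, the adjusted p had to be under 0.05 and the fold at least 1.5. The SE is the absolute log2 fold change over the square root of the F statistic. FPKM were computed from the deposited counts, the deposited gene length and the scaled totals. Log2 CPM for profiles had a prior count of 2. The fit was tested on simulated data.

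The members and the gene lists were chosen with earlier results of these data known. Named were the members and, from each pathway list, in the hypoxia and in the rSRGN comparison, up to 3 called genes with the largest absolute change and a mean of at least 1 CPM. Cx3cr1, Adam10, Adam17, Etv1, Etv4, Etv5, the ligands below the count filter and the chromosome 5 neighbours were named beside them after their values were seen. In the shedding list, 1 of 14 symbols (Nrdc) was not matched by name. Some genes that met the rule for similar profiles are not reported here. Alternatives were DESeq2 1.42.0, other scalings and filters, the unadjusted p, no fold limit, fits of 2 groups alone, a block for the replicate number, and leaving out single libraries. The plots were drawn with matplotlib 3.10.9.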

Additional observations from a re-analysis of the deposited data

How the results depend on the processing

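Member fold changes were refitted under up to 16 alternatives. Of 477 values, 458 kept their direction and their side of the limits, 18 were no longer past the limits and 1 changed sign (Tgfa in hypoxia against control, whose range with 1 library left out was -0.1877 to 0.0602, the latter without replicate 3 of hypoxia). Changing only the limits, Areg with rSRGN passed at the unadjusted p. Ereg and Btc kept their rise with rSRGN in all 16 refits. With 1 library left out, 8 to 9 members were called in hypoxia against control, beside 8496 to 8952 of all genes. In hypoxia + rSRGN against hypoxia 2 to 5 members were called, beside 321 to 699 of all genes. The count was 2 without replicate 3 of hypoxia and 3 without replicate 2 of hypoxia + rSRGN. In hypoxia + rSRGN against control 9 to 10 members were called, beside 8028 to 8535 of all genes. Hbegf with rSRGN was also under the fold limit when scaled by library size alone (0.58). Btc in hypoxia against control was not called when genes with 1 count or more were kept (0.56, adjusted p = 0.0646) or in a fit of only those groups (adjusted p = 0.0758). Tgfa in hypoxia + rSRGN against control was under the fold limit in 4 alternatives (0.56 to 0.58). Over all genes, 525 were called with rSRGN, 899 at the unadjusted p, 2790 without the fold limit and 321 without replicate 3 of hypoxia. The cause of these shifts was not tested. Libraries of the same number showed no shared deviation (correlation -0.0374 to 0.0215 over 9 pairs). Pairs of different numbers ranged from -0.0477 to 0.046. With so few libraries per group, this check cannot decide whether cultures of the same number shared an isolation. With the replicate number as a block, 9, 5 and 10 members were called in the same 3 comparisons. The low counts of Areg, 2 to 5 per control library, limit its precision, and it was absent under the filter of at least 10 counts in every library.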
